A study of Mus musculus with 10 samples.

Results

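The contractile machinery of smooth muscle was examined as a set of 38 named genes in the aorta of mice with and without a working Ptgds gene, which codes for L-PGDS, an enzyme that forms prostaglandin D2. The set was chosen by gene name and role, and among its probe sets that carry 1 symbol in the platform annotation, each gene was read from the brightest by mean value. Of the 38 genes, 37 had such a probe set and all 37 were tested, out of 14321 genes tested on the arrays. Rock2 had none and is only named. Expression was measured in total RNA on 1-colour Affymetrix arrays, in male mice of strain C57BL/6, either wild type or Ptgds-/-, group-housed on a chow diet; the labels give no age, litter or description of the deleted allele. The series lists 5 wild type and 5 knockout biological replicates, and wild type replicate 2 has no values, so 4 wild type arrays (replicates 1, 3, 4 and 5) stood against 5 knockout arrays (replicates 1 to 5). Values are on the log2 scale, so that a difference of 1 is a doubling.

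In a smooth muscle cell, force comes from smooth muscle myosin pulling on actin filaments that are anchored in dense bodies and at adhesion plaques of the membrane. Calcium bound to calmodulin switches on myosin light chain kinase, which phosphorylates the regulatory light chain of myosin, and myosin phosphatase reverses that step. The small GTPase RhoA and its kinases hold the phosphatase back, which keeps tone high at a given calcium level. Most genes of this machinery are driven by serum response factor (SRF) together with its cofactor myocardin, which act through a short DNA element called the CArG box.

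To show where that element lies before the expression values, the RefSeq promoter windows of GRCm38.p6 were searched for it. The windows run from 250 bases before to 50 bases after each annotated start. A CArG box was counted as 2 C, then 6 letters that are each A or T, then 2 G, and it reads as the same class of letters on both strands. The table held a window for 33 of the 38 genes, and 7 of them (21.2%) carried a CArG box, against 488 of all 27025 genes in the table (1.81%). Those 7 were Srf, Cnn2, Myl9, Myl6, Lmcd1, Vcl and Ldb3. A form in which 1 of the inner letters is not A or T occurred in 6 of the 33 genes (18.2%), against 9.69% of all genes. Acta2 had that form, as CCCTATATGG 84 bases and CCTTGTTTGG 34 bases before its start. Such matches are letters in a window and were not measured as bound sites, and windows without a match say nothing of SRF elsewhere at the gene. Below are 100 bases around the element for 4 of these 7 genes, picked by their expression values. Of the 7, Lmcd1, Myl9 and Cnn2 had the widest differences between genotypes and Vcl the narrowest. Other members without a box in their window, such as Casq2 and Ppp1r14a, differed more than Cnn2. A link between the box and the difference was not tested. Capitals mark the CArG box, and each line runs 5′ to 3′ on the plus strand, which is the gene's strand in all 4.
Lmcd1, chr6:112273508-112273607: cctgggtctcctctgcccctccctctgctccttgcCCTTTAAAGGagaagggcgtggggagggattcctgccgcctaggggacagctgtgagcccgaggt
Myl9, chr2:156775258-156775357: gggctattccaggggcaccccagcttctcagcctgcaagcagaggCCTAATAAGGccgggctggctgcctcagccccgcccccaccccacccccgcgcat
Cnn2, chr10:79988499-79988598: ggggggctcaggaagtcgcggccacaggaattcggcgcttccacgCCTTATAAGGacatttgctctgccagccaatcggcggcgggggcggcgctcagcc
Vcl, chr14:20929148-20929247: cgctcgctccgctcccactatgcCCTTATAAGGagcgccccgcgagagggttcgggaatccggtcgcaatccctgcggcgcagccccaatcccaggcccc
The boxes begin 215 bases before the start of Lmcd1, 161 before that of Myl9, 56 before that of Cnn2 and 227 before that of Vcl. Cnn2 and Vcl hold the same letters, CCTTATAAGG.

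The genotype labels were checked on Ptgds itself, whose wild type values were 9.11, 10.31, 8.79 and 8.68 and whose knockout values were 3.86, 3.92, 3.76, 3.67 and 4.40 (knockout minus wild type −5.30, SE 0.32, adjusted p 0.00059 in limma). Here and below, wild type values are in the order of replicates 1, 3, 4 and 5 and knockout values in the order of replicates 1 to 5. Array medians lay between 5.88 and 5.97, and 70.1% to 71.5% of an array's probe sets exceeded 4. Some arrays carried transcripts of tissue next to the aorta. Of these arrays, wild type replicate 3 was the lowest in the median deviation of the contractile genes, as given below. The mean of 9 sympathetic neuron markers was 10.92 on wild type replicate 3 and 9.17 on knockout replicate 1, against 4.94 to 7.63 on the other 7 arrays. The mean of 9 skeletal muscle markers was 10.43 on knockout replicate 3 and 4.73 to 5.32 elsewhere. The mean of 9 cardiomyocyte markers was highest on wild type replicate 4 (8.31) and ranged from 6.16 to 7.56 on the rest. Myh1, Myh2 and Myh4 of the 12 skeletal muscle markers and Myl2 of the 10 cardiomyocyte markers did not exceed 4 on at least 4 arrays. In tissue RNA, fewer smooth muscle cells and less of a transcript per cell cannot be told apart. Smooth muscle markers outside the set (8 of 8 tested) averaged 11.09 to 11.30 in wild type and 10.97 to 11.39 in knockout aortas. Of these, 4 were higher and 4 lower in the knockout, from −0.13 to +0.20 (median +0.031). Hspb6 among them was higher on every knockout array (+0.18, adjusted p 0.159 in limma), as were 4.59% of all genes. By value, all markers of endothelium (9 of 9, median −0.27), adipocytes (10 of 10, −0.22) and macrophages (8 of 8, −0.29) were lower in the knockout. Over all 14321 tested genes, 6199 were lower. Fibroblast markers were lower in 5 of 8 (median −0.039) and Schwann cell markers in 2 of 5 (median +0.0072). None of these marker genes passed the adjusted threshold (0 in limma). An unadjusted p under 0.05 was reached by 4 of the 9 endothelial markers (44.4%, against 19.9% of all genes), 1 adipocyte and 1 macrophage marker. Hspb6, of the smooth muscle markers, reached it as well. Esam was lower on every knockout array. The part of these cells in the results below was not tested, apart from the adipocyte covariate given in the closing section.

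No contractile gene differed between wild type and knockout aortas after adjustment over all genes (0 of 37 in limma at an adjusted p under 0.05, where 0.0559% of all 14321 genes passed, 0.0279% higher and 0.0279% lower). The lowest adjusted p was 0.095, for Ppp1r14a. By value alone, 30 of the 37 genes (81.1%) were higher in the knockout, against 56.7% of all tested genes, and their median difference was +0.067 against +0.027 over all tested genes. An unadjusted p under 0.05 was reached by 10 genes (27.0%, against 19.9% of all genes), 8 of them higher (against 12.8% of all genes) and 2 lower (against 7.12%). The 2 groups of arrays did not overlap for 7 of the 37 genes (18.9%), against 6.76% of all genes. Ppp1r14a, Cnn2, Mrvi1, Tagln, Flna and Tpm2 were higher on every knockout array (6 genes, against 4.59% of all genes), and Casq2 was lower on every knockout array (1 gene, against 2.16%). Without wild type replicate 1, 3 of the 37 genes passed the adjusted threshold (8.11%), all higher in the knockout: Ppp1r14a, Myl9 and Lmod1. The same fit called 1051 of all 14321 genes (7.34%).

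**Figure D1:**
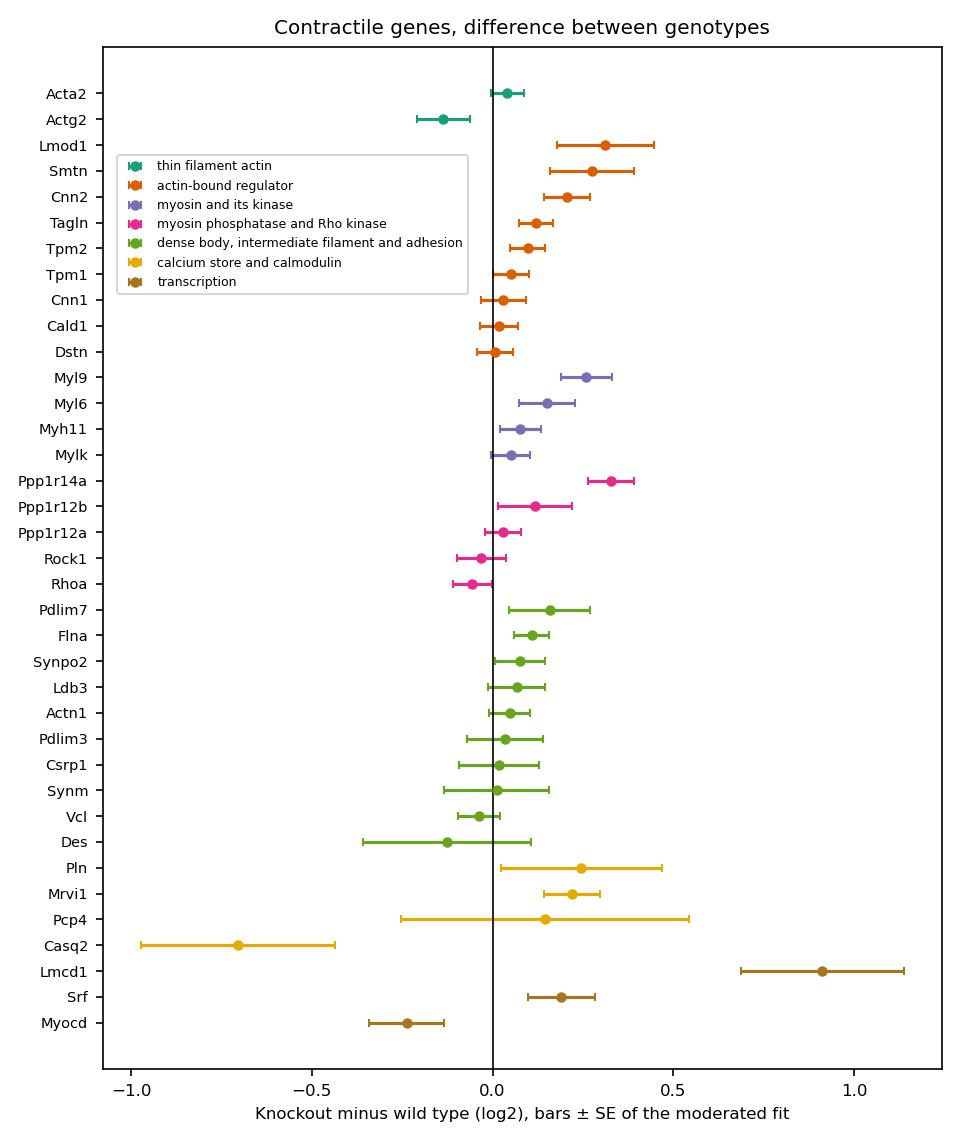
Knockout minus wild type difference (log2, horizontal axis) of the 37 tested contractile genes, grouped and coloured by role; points are the fitted differences and bars the standard error of the moderated fit (4 wild type and 5 knockout arrays). Of the 37 points, 30 lie above 0, most of them within 0.35 of it, while Lmcd1 at +0.91 and Casq2 at −0.71 lie farthest out.

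The counts above moved with single arrays. Of the 9 arrays left out in turn, wild type replicate 3, which had the highest neuron markers, gave the lowest number of genes higher in the knockout and the lowest median. It held the lowest value of all 9 arrays for 23 of the 37 genes and lay above a gene's own mean for only 4 of them. Over the 37 genes, the median deviation from the gene's mean was −0.15 on that array and between −0.059 and +0.065 on the other 8. Knockout replicate 1, which also had high neuron markers, was at the upper end (+0.065), and knockout replicate 3, with skeletal muscle transcripts, was at +0.020. When wild type replicate 3 was left out, 23 genes (62.2%, against 56.3% of all genes) were higher in the knockout. The median difference was then +0.020 against +0.025 over all genes. At an unadjusted p under 0.05 in limma, 4 genes were higher and 3 lower (18.9%, against 15.3% of all genes). The groups did not overlap for 6 genes higher and 3 lower in the knockout (24.3%, against 9.53% of all genes). Without knockout replicate 1, the other array with many neuronal transcripts, 5 genes were higher and 0 lower at that p (13.5%, against 17.7% of all genes), and the median was +0.054. Of the other arrays, leaving out wild type replicate 5 left 5 genes at that p (13.5%, against 13.2% of all genes). Knockout replicate 3 left 6 (16.2%, against 17.3%) and knockout replicate 5 left 6 (16.2%, against 15.7%). The share was 29.7% without wild type replicate 1 (against 26% of all genes) and 29.7% without wild type replicate 4 (against 18.9%). It was 18.9% without knockout replicate 2 (against 15.6%) and 24.3% without knockout replicate 4 (against 18.2%). Wild type replicates 1 and 4 raised the number of genes whose groups do not overlap to 11 when either was left out (29.7% in both cases, against 19.7% and 11.2% of all genes).

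**Figure D2:**
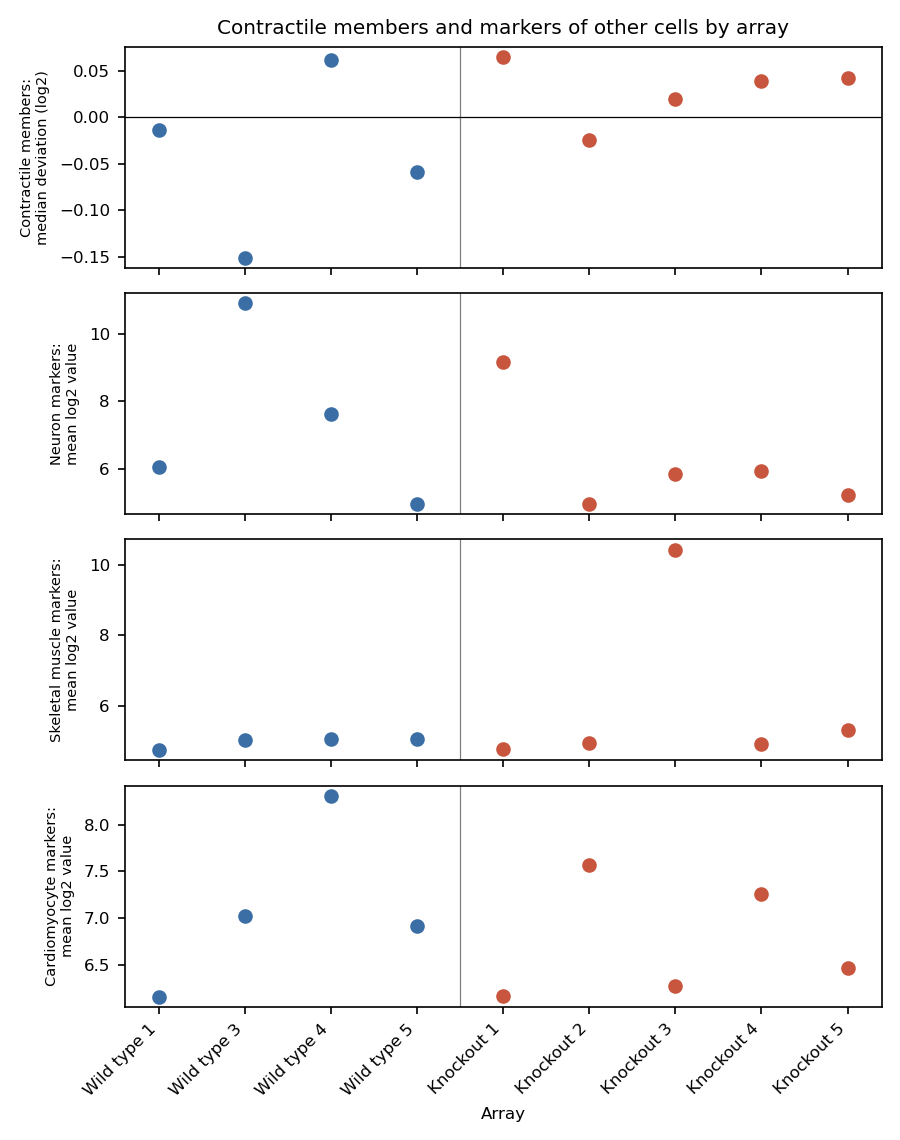
Values per array (horizontal axis, 4 wild type arrays in blue and 5 knockout arrays in red): the median deviation of the 37 contractile genes from their means over all arrays, and the mean log2 values of the markers of sympathetic neurons, skeletal muscle and cardiomyocytes (9 tested markers each). Wild type replicate 3 is lowest in the top panel (−0.15) and highest in neuron markers (10.92). Knockout replicate 1 is next in neuron markers (9.17) and highest in the top panel (+0.065). Knockout replicate 3 alone is high in skeletal muscle markers (10.43), and wild type replicate 4 is highest in cardiomyocyte markers (8.31).

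On its brightest probe set, near the top of the scale, Acta2 lay close together in the 2 genotypes, while its dimmer probe sets differed by +0.23 and +0.60. On the brightest one, Acta2, smooth muscle α-actin of the thin filament, read 13.92, 13.86, 13.94 and 13.94 on the wild type arrays and 13.94, 13.94, 13.94, 13.98 and 13.98 on the knockout arrays. The groups overlap, and the difference of +0.041 (SE 0.045, adjusted p 0.641 in limma) has a 95% interval of −0.06 to 0.14. Actg2, smooth muscle γ-actin, had a difference of −0.14 (SE 0.073, adjusted p 0.325), with its lowest value, 11.57, on knockout replicate 2. How far the probes of one actin gene also pick up another was not examined.

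Transcripts of actin-bound proteins were higher in the knockout by value for 9 of 9 genes (against 56.7% of all genes), 4 of them at an unadjusted p under 0.05 (44.4%, against 19.9% of all genes). Both counts depended on wild type replicate 3. Without that array, Cnn1, Cald1 and Dstn were lower in the knockout by value. The unadjusted p in limma was then 0.025 for Cnn2, 0.057 for Tagln, 0.119 for Smtn and 0.119 for Lmod1. Cnn2, a calponin that binds actin in many cell types, read 12.48, 12.29, 12.58 and 12.43 in wild type and 12.71, 12.61, 12.65, 12.65 and 12.64 in knockout aortas. Every knockout array lay above every wild type array, with means of 12.45 ± 0.12 (SD, n = 4) and 12.65 ± 0.03 (SD, n = 5), a difference of +0.21 (SE 0.064, 1.15-fold) with an adjusted p of 0.153 (limma). Tagln, transgelin, an abundant actin-bundling protein of smooth muscle, read 13.67, 13.59, 13.60 and 13.61 in wild type and 13.76, 13.73, 13.78, 13.72 and 13.70 in knockout. The groups did not overlap, but the highest wild type and the lowest knockout value (13.67 and 13.70) lay close together. Its difference was +0.12 (SE 0.046, 1.09-fold, adjusted p 0.207).

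Smtn, smoothelin, a protein found in contractile smooth muscle, and Lmod1, leiomodin, which nucleates actin filaments, had the largest SDs of the actin-bound group among the wild type arrays. Smtn read 12.48, 11.92, 12.38 and 12.08 in wild type and 12.48, 12.46, 12.45, 12.42 and 12.66 in knockout. Wild type replicates 1 and 4 lay near the knockout values and replicates 3 and 5 well under them, and the difference was +0.27 (SE 0.12, adjusted p 0.237). Lmod1 ranged from 10.95 to 11.62 in wild type and from 11.41 to 11.67 in knockout, a difference of +0.31 (SE 0.13, adjusted p 0.238). Without wild type replicate 1, where it stood at 11.62, Lmod1 passed the test (+0.45, adjusted p 0.034). Its difference was +0.245 without wild type replicate 3 (adjusted p 0.432) and +0.222 without wild type replicate 5 (adjusted p 0.476). In both genes the knockout arrays kept to a narrower range than the wild type arrays, with SDs of 0.09 against 0.26 for Smtn and 0.10 against 0.31 for Lmod1; whether the spreads differ was not tested.

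Cnn1, the calponin typical of differentiated smooth muscle, read 12.19, 12.06, 12.30 and 12.25 in wild type and 12.31, 12.18, 12.22, 12.25 and 12.18 in knockout. Its groups overlap fully, and its difference of +0.030 (SE 0.063, adjusted p 0.821) contrasts in value with that of Cnn2. A test of 1 gene against the other was not run. Tpm2, a tropomyosin that lies along the actin filament, had groups that did not overlap (wild type 13.55 to 13.68, knockout 13.71 to 13.75, difference +0.097, adjusted p 0.309). Tpm1 (+0.050), Cald1 (caldesmon, an inhibitor of actin-activated myosin, +0.018) and Dstn (destrin, which depolymerises actin, +0.0071) had overlapping groups and adjusted p-values of 0.598 to 0.951.

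Genes of myosin and its kinase were higher by value in 4 of 4, and Myl9, the regulatory light chain that the kinase phosphorylates, was the one with an unadjusted p under 0.05. Myl9 read 13.13, 12.97, 12.88 and 12.94 in wild type and 13.30, 13.29, 13.31, 13.18 and 13.13 in knockout. Wild type replicate 1 reached the lowest knockout value and the other wild type arrays lay below all of them. The difference was +0.26 (SE 0.069, 1.20-fold, adjusted p 0.135), and without wild type replicate 1 it passed the test (+0.31, adjusted p 0.030). That was the 1 alternative in which Myl9 passed, and its adjusted p was up to 0.404 in the others. Myh11, the smooth muscle myosin heavy chain, read 13.88, 13.67, 13.83 and 13.74 in wild type and 13.88, 13.81, 13.84, 13.85 and 13.89 in knockout. Its groups overlap, with a difference of +0.077 (SE 0.057, adjusted p 0.476). Mylk, the kinase, had a difference of +0.050 (adjusted p 0.626). Myl6, the essential light chain, had +0.15 (adjusted p 0.315) on its probe set with 1 symbol; its other probe sets carry several symbols and were left out.

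**Figure D3:**
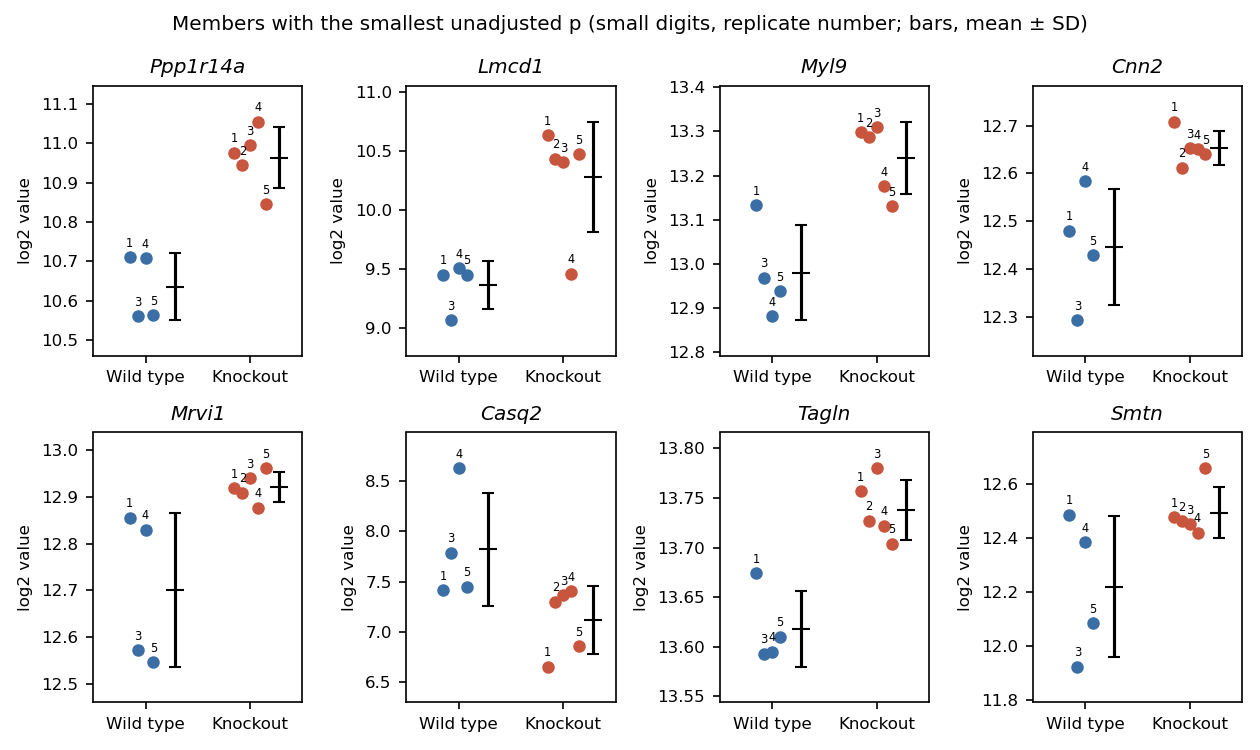
Log2 values on each array (vertical axes, which do not start at 0) for the 8 contractile genes with the smallest unadjusted p, wild type (blue, 4 arrays) beside knockout (red, 5 arrays); small digits give the replicate number and bars the mean ± SD. The groups do not overlap for Ppp1r14a, Cnn2, Mrvi1, Tagln and Casq2, and knockout replicate 4 of Lmcd1 (9.46) lies with the wild type arrays.

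On the side of myosin phosphatase, Ppp1r14a stood out by value from the other genes of its group. It encodes CPI-17, a small protein that blocks myosin phosphatase once protein kinases have phosphorylated it, and so raises the response of the filaments to calcium. Ppp1r14a read 10.71, 10.56, 10.71 and 10.56 in wild type and 10.98, 10.94, 11.00, 11.05 and 10.85 in knockout aortas. Every knockout array lay above every wild type array, with means of 10.64 ± 0.08 (SD, n = 4) and 10.96 ± 0.08 (SD, n = 5). The difference was +0.33 (SE 0.063, 1.26-fold, 95% interval 0.19 to 0.47), with an unadjusted p of 0.00055 and an adjusted p of 0.095 in limma, short of the threshold. Over 24 alternatives it passed in 2, when arrays were weighted (adjusted p 0.048) and without wild type replicate 1 (adjusted p 0.026). The latter fit called 7.34% of all genes. Its adjusted p in limma was 0.188 without wild type replicate 3, 0.289 without wild type replicate 5 and at most 0.368.

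On their brightest probe sets, the phosphatase's targeting subunits, Rhoa and Rock1 had overlapping groups; dimmer probe sets of Ppp1r12b and Rock1, described further on, differed by +0.56 and +0.98. Ppp1r12a, the main targeting subunit of smooth muscle (MYPT1), read 13.33, 13.23, 13.35 and 13.28 in wild type and 13.32, 13.31, 13.32, 13.38 and 13.30 in knockout (+0.029, adjusted p 0.769). Ppp1r12b, a related subunit, read 11.69, 11.37, 11.91 and 11.55 in wild type and 11.85, 11.67, 11.76, 11.73 and 11.73 in knockout (+0.12, adjusted p 0.539). In both genes the knockout values lay inside the range of the wild type arrays, apart from 13.38 on knockout replicate 4 for Ppp1r12a. Rhoa differed by −0.056 (adjusted p 0.582), and Rock1 read 12.69, 12.69, 12.87 and 12.88 in wild type and 12.70, 12.72, 12.71, 12.87 and 12.77 in knockout (−0.031, adjusted p 0.83).

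Genes of dense bodies, intermediate filaments and adhesion plaques had 8 of 10 values higher in the knockout and 0 with an unadjusted p under 0.05. Flna, filamin A, which crosslinks actin, was the 1 gene whose groups did not overlap, at 13.19 to 13.33 in wild type and 13.37 to 13.40 in knockout (+0.11, SE 0.049, adjusted p 0.255). Des, desmin, the muscle intermediate filament, read 8.93, 9.12, 9.05 and 9.01 in wild type and 9.03, 8.08, 9.35, 9.25 and 8.80 in knockout. The wild type arrays were close together and the knockout arrays spread over more than 1 log2 unit, from replicate 2 to replicate 3, the array with skeletal muscle transcripts. Its difference was −0.13 (SE 0.23, adjusted p 0.789), −0.24 without knockout replicate 3 and +0.079 without knockout replicate 2. Skeletal and heart muscle also express Des, Ldb3, Pdlim3 and Synm. With the skeletal muscle markers as a covariate, the differences were −0.24 for Des (adjusted p 0.607), +0.082 for Ldb3, +0.025 for Pdlim3 and −0.0027 for Synm. As these markers were high on knockout replicate 3 alone, this covariate does much the same as leaving out that array (Des −0.24 in both).

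Synm, synemin, a partner of desmin, read 8.79, 8.90, 9.23 and 8.82 in wild type and 9.03, 8.53, 8.98, 8.96 and 9.24 in knockout (+0.012, adjusted p 0.973). Synpo2, an actin-bundling protein of the Z-disc and dense body, read 12.14, 12.00, 12.24 and 12.12 in wild type and 12.27, 12.15, 12.13, 12.14 and 12.33 in knockout (+0.075, adjusted p 0.566). Ldb3, a PDZ-LIM protein that binds α-actinin, read 11.88, 11.63, 11.95 and 11.77 in wild type and 11.93, 11.75, 11.81, 11.91 and 11.98 in knockout (+0.067, adjusted p 0.665). In all 3 genes the groups overlap and the sign of the difference depended on the probe set or on single arrays. The α-actinin gene Actn1 (+0.047), vinculin (Vcl, −0.039), Pdlim3 (+0.035), Pdlim7 (+0.16) and Csrp1 (+0.019) had adjusted p-values of 0.454 to 0.943.

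Genes of the calcium store and of calmodulin included both directions. Mrvi1 encodes IRAG, which sits at the inositol trisphosphate receptor and lets cyclic GMP-dependent kinase damp calcium release. It read 12.86, 12.57, 12.83 and 12.55 in wild type and 12.92, 12.91, 12.94, 12.88 and 12.96 in knockout. All 5 knockout arrays lay above the wild type arrays, by a narrow margin over replicates 1 and 4, with a difference of +0.22 (SE 0.077, 1.16-fold, adjusted p 0.180). Its second probe set differed by +0.28.

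Casq2, the cardiac form of calsequestrin, a calcium-binding protein of the sarcoplasmic reticulum, was the 1 gene lower on every knockout array. It read 7.42, 7.79, 8.63 and 7.45 in wild type and 6.65, 7.30, 7.36, 7.40 and 6.86 in knockout, with means of 7.82 ± 0.56 (SD, n = 4) and 7.12 ± 0.34 (SD, n = 5). The lowest wild type and the highest knockout value nearly touch, and the difference of −0.71 (SE 0.27, 1.63-fold lower, adjusted p 0.202) was widest against wild type replicate 4. That array also had the highest mean of the cardiomyocyte markers, and without it the difference was −0.44 (adjusted p 0.274). With the cardiomyocyte markers as a covariate it was −0.53 (adjusted p 0.230). Pln, phospholamban, which restrains the calcium pump of the reticulum, read 8.56, 8.58, 9.50 and 8.50 in wild type and 8.99, 8.90, 8.69, 9.38 and 9.20 in knockout. Its highest value was again on wild type replicate 4, and its difference of +0.25 (SE 0.22, adjusted p 0.561) was +0.48 without that array (adjusted p 0.193). Pcp4, a small modulator of calmodulin, ranged from 7.08 to 8.38 in wild type and from 6.56 to 8.53 in knockout, the widest scatter of the 37 genes within the knockout group (SD 0.71).

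Among the transcription factors, Lmcd1 had the largest difference of the set. It encodes a LIM protein that is known in heart and lung to hold back GATA6. Lmcd1 read 9.45, 9.07, 9.51 and 9.45 in wild type and 10.64, 10.44, 10.40, 9.46 and 10.47 in knockout. Knockout replicate 4 lay among the wild type arrays, and the other 4 knockout arrays lay about 1 log2 unit above all of them. Means were 9.37 ± 0.20 (SD, n = 4) and 10.28 ± 0.47 (SD, n = 5), a difference of +0.91 (SE 0.23, 1.88-fold, 95% interval 0.40 to 1.42, adjusted p 0.131). Without knockout replicate 4 it was +1.12 and passed the test (adjusted p 0.019). Lmcd1 had 1 probe set on the array.

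Srf and Myocd, which drive much of the set, had values of opposite sign on their brightest probe sets. Srf read 10.60, 10.43, 10.93 and 10.64 in wild type and 10.91, 10.80, 10.79, 10.85 and 10.84 in knockout (+0.19, SE 0.094, adjusted p 0.290). The 5 knockout arrays lay close together and inside the wild type range. A second, dimmer probe set of Srf differed by −0.0046 (adjusted p 0.98 in limma over all single-symbol probe sets). Myocd, myocardin, read 11.44, 11.52, 11.66 and 11.84 in wild type and 11.39, 11.37, 11.37, 11.58 and 11.15 in knockout. The knockout arrays lay below the wild type arrays except for replicate 4, and the difference was −0.24 (SE 0.10, unadjusted p 0.048, adjusted p 0.248). The second, dimmer probe set of Myocd differed by −0.40 (adjusted p 0.300 over all single-symbol probe sets).

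**Figure D4:**
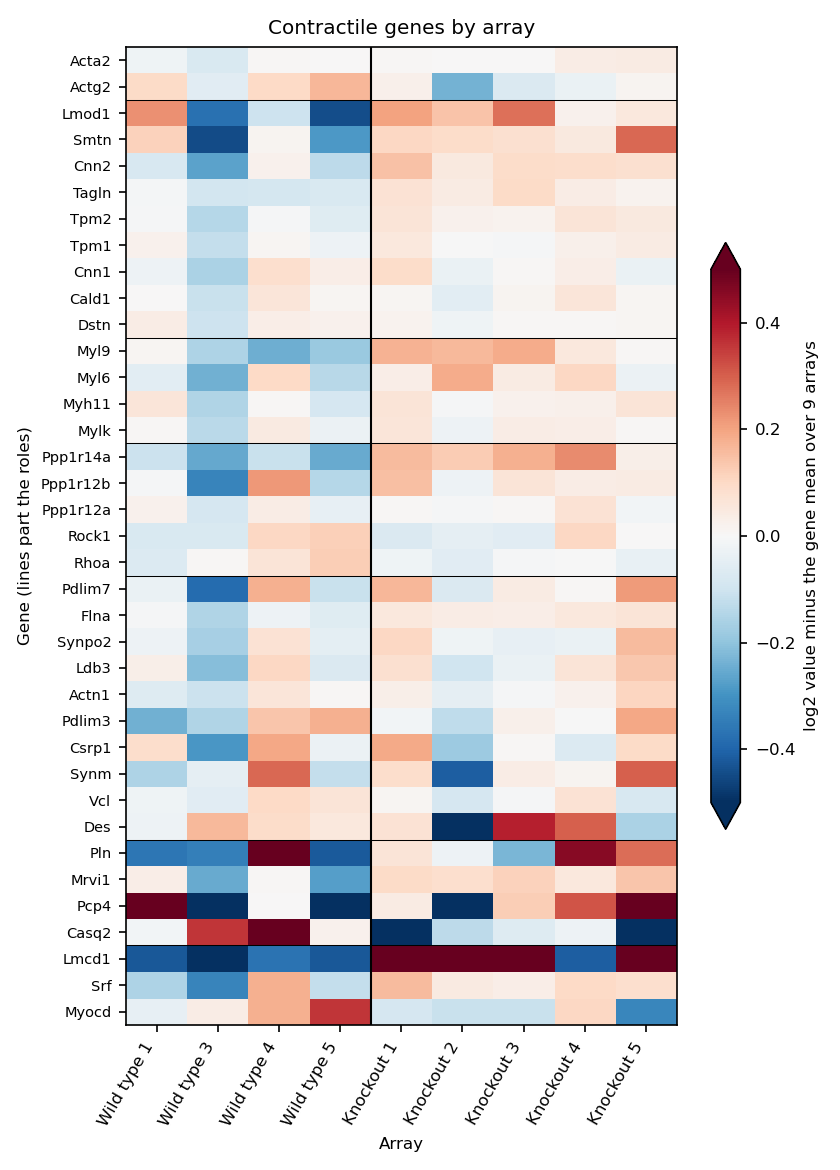
Log2 value of each contractile gene on each array (columns) minus the gene's mean over the 9 arrays (colour scale, which ends at ± 0.5), with genes in rows parted by role. Wild type replicate 3 is blue for most genes, being the lowest array for 23 of 37, and the high and low arrays of Des, Pln, Pcp4, Casq2 and Lmcd1 differ from those of the other genes.

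Genes with several probe sets gave a further view of the same transcripts. In all, 82 probe sets carried the symbol of 1 of the 37 genes and 80 were tested. Of these, 59 were higher and 21 lower in the knockout, and 0 passed an adjusted p of 0.05 over the 26504 single-symbol probe sets, of which 0.0792% passed. The 43 dimmer probe sets included 29 higher ones (against 52.7% of all single-symbol probe sets), 10 with an unadjusted p under 0.05 (against 18.9%) and 4 that were higher on every knockout array (against 3.8%). Of 22 genes with more than 1 tested probe set, 14 had all of them on the same side of 0 and 8 did not (Des, Ldb3, Ppp1r12a, Ppp1r12b, Rock1, Srf, Synm and Synpo2). In 18 of the 22 a dimmer probe set differed by more than the brightest one did. The median size of the difference was 0.061 for the brightest probe sets and 0.253 for the widest of the others. Picking the widest, where a gene had several others, favours the dimmer ones, so these figures cannot show that dimmer probe sets differ more. Without that choice, the median difference was +0.048 for the brightest probe sets of the 22 genes and +0.083 for the 43 dimmer ones.

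Acta2, Cald1, Tpm2, Rock1 and Ppp1r12b were singled out here after their values were seen. For Acta2 the brightest probe set, near the top of the scale at a mean of 13.94, differed by +0.041, and the others by +0.23 (mean 11.20) and +0.60 (mean 9.49, SE 0.28, adjusted p 0.275). The last one read 9.22, 9.04, 9.44 and 8.93 in wild type and 10.09, 10.12, 9.12, 9.13 and 10.35 in knockout, so that knockout replicates 3 and 4 lay with the wild type arrays. Cald1 had 5 probe sets at +0.018, +0.054, +0.26, +0.69 and +0.55, and the groups did not overlap for the last pair. The probe set at +0.69 read 10.02, 9.24, 9.87 and 9.45 in wild type and 10.23, 10.32, 10.48, 10.19 and 10.47 in knockout (SE 0.16, adjusted p 0.110). Rock1 showed the widest disagreement: 4 probe sets lay between −0.14 and −0.031, and 1 at +0.98 (SE 0.21, adjusted p 0.103), with 8.74 to 9.57 in wild type and 9.44 to 10.26 in knockout. For Ppp1r12b, a probe set with groups that did not overlap differed by +0.56 (adjusted p 0.156), where the brightest probe set differed by +0.12. Tpm2 was higher on 4 of 4 probe sets, from +0.097 to +0.52, the last of them high on knockout replicate 3 alone (9.27 against 7.15 to 7.50 elsewhere). Where on each transcript these probes lie was not examined.

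**Figure D5:**
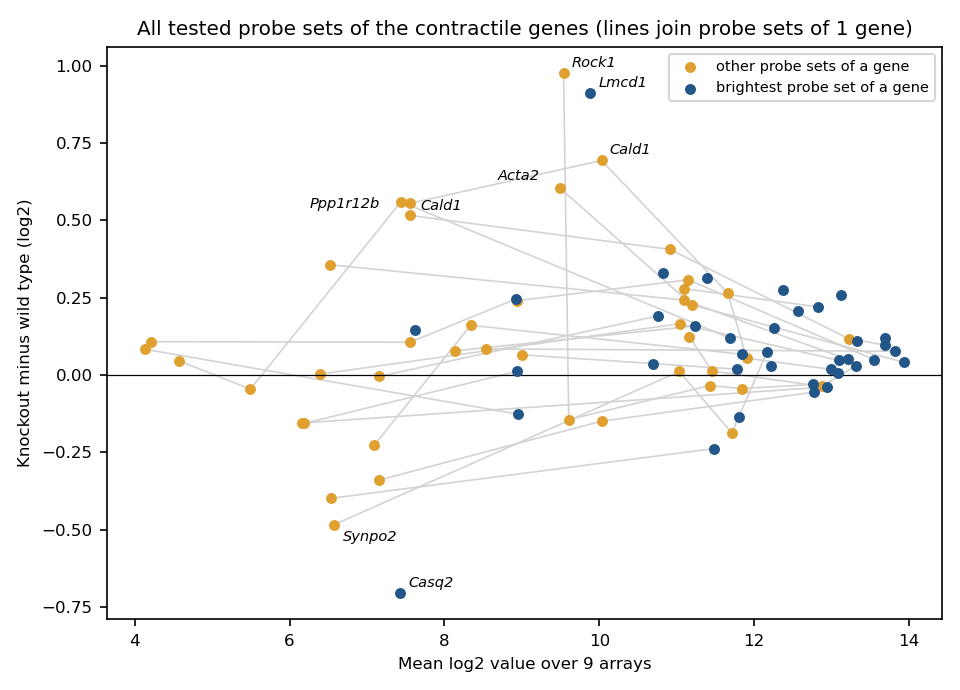
Knockout minus wild type difference (log2, vertical axis) against the mean log2 value over 9 arrays (horizontal axis) for the 80 tested probe sets of the contractile genes; lines join probe sets of the same gene, and blue points are the brightest of each. At the bright end most differences lie close to 0, with Smtn (+0.27), Myl9 (+0.26), Mrvi1 (+0.22) and Cnn2 (+0.21) above the rest. Dimmer probe sets of Rock1 (+0.98), Cald1 (+0.69 and +0.55), Acta2 (+0.60) and Synpo2 (−0.48) lie farther out.

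Other genes of the same pathway, in 5 lists of 60 genes of which 53 were tested, had 28 higher and 25 lower values and a median difference of +0.0081, with 0 past the adjusted threshold. An unadjusted p under 0.05 was reached by 5 higher and 1 lower gene (11.3%, against 19.9% of all genes). The groups did not overlap for 2 genes, Camk2g and Itga7 (3.77%, against 6.76% of all genes). Actins, myosins and tropomyosins of many cell types, such as Actb, Myh9 and Tpm4, were lower by value in 7 of 10 (median −0.027); Myh10, a non-muscle myosin, had +0.14 (adjusted p 0.234). Of 6 tested genes that carry the calcium signal to myosin, 5 were higher, among them Camk2g, a calcium and calmodulin-dependent kinase, at +0.36 (adjusted p 0.164), whose groups did not overlap. Inputs to RhoA and phosphatase partners were higher in 7 of 11, with Arhgef1, a RhoA exchange factor, at +0.25 (adjusted p 0.195). Partners and brakes of SRF were lower in 7 of 10 (median −0.043) with 0 at an unadjusted p under 0.05 and a lowest adjusted p of 0.317. Genes of adhesion plaques were higher in 10 of 16, with the laminin-binding integrin gene Itga7 at +0.36 (adjusted p 0.131) and groups that did not overlap.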

How the data were processed

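Total RNA of the aorta was profiled on 1-colour Affymetrix arrays of 45101 probe sets. The authors deposited 1 value per probe set and array, which the submitters' processing notes name as GCRMA output (version not given in the sources used here). No scale is stated; the deposited values were taken as log2 because they run from 1.75 to 14.81. The column of wild type replicate 2 is empty and, per the labels, was excluded.

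A probe set was tested if it carried 1 gene symbol (34945 did, 932 several) and exceeded 4 on at least 4 arrays, and each gene was represented by the probe set with the highest mean. Groups were compared over all 14321 genes by linear models in limma (version 3.58.1, R 4.3.3; eBayes moderation, no covariate), with Benjamini-Hochberg adjustment and a threshold of 0.05. Differences are knockout minus wild type with the moderated SE; ± marks the SD. The fit was tested on simulated data. The number of arrays limits precision.

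Members and gene lists were chosen with earlier results of these data known, so lists are described by counts and medians and not tested. Values are given in every array for the members with the 8 smallest p-values, for Acta2, Myh11, Tagln, Cnn1, Myocd, Srf and Des, and for members whose probe sets differ in sign. 12 of the 144 genes of the pathway and marker lists had no probe set with 1 symbol. Sequences are from RefSeq's promoter table of GRCm38.p6. Alternatives covered normalization, filter, probe set, variance model, covariates, a replicate block and single arrays.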

Additional observations from a re-analysis of the deposited data

Results flagged for a closer look

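In 6 of the 74 groups of arrays examined (37 genes in 2 genotypes), 1 array lay far from the rest of its group by Dixon's criterion; chance alone gives about 1 in 20. Lmcd1 was at 9.46 on knockout replicate 4 against 10.40 to 10.64 on the other knockout arrays, and at 9.07 on wild type replicate 3 against 9.45 to 9.51 on the other wild type arrays. Smtn was at 12.66 on knockout replicate 5 against 12.42 to 12.48. Ppp1r12a was at 13.38 on knockout replicate 4 against 13.30 to 13.32, a small gap. Pln was at 9.50 on wild type replicate 4 against 8.50 to 8.58, and that array also had the highest mean of the cardiomyocyte markers. Dstn was at 12.98 on wild type replicate 3 against 13.10 to 13.12.

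Among the means of the marker lists, the skeletal muscle markers were at 10.43 on knockout replicate 3 against 4.77 to 5.32 on the other knockout arrays, and at 4.73 on wild type replicate 1 against 5.03 to 5.07. The sympathetic neuron markers were at 9.17 on knockout replicate 1 against 4.94 to 5.94. By the same criterion, the median deviation of the contractile genes had no array far from its group in either genotype.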

How the results depend on the processing

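Over 24 alternatives, 823 of 888 values of the 37 genes kept their direction and their side of the threshold, 5 newly passed the test and 60, in 11 genes, turned sign; the cause was not tested. The number of genes called, knockout against wild type (8 of 14321), was 19 with a floor of 6, 33 with trend and robust options, 73 with array weights, 2 with the adipocyte markers as a covariate, 3 with the skeletal muscle markers, 4 with the cardiomyocyte markers and 86 at a threshold of 0.1, and ran from 2 to 1051 with 1 array left out, the highest without wild type replicate 1. Counts of contractile genes called (0) were 1 with array weights, 1 at a threshold of 0.1 and 0 to 3 with 1 array left out. The median difference of the 37 genes lay between +0.012 and +0.12. Setting array medians to 0 moved the median of all genes from +0.027 to +0.004. The adipocyte covariate was also read for the contractile genes with an unadjusted p under 0.05 in the main fit. It gave Smtn +0.155, Lmod1 +0.27, Lmcd1 +0.78, Cnn2 +0.18, Mrvi1 +0.17, Myocd −0.13 and Casq2 −0.55, all nearer 0. Tagln (+0.13), Myl9 (+0.28) and Ppp1r14a (+0.35) were farther from it. The lowest adjusted p among them in limma was 0.324, for Ppp1r14a.

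The labels do not say that replicate numbers pair the samples. Deviations of same-numbered arrays correlated at −0.361, −0.151, 0.06 and 0.214, which gives no clear sign of pairing and cannot exclude it. A replicate block over numbers 1, 3, 4 and 5, which drops knockout replicate 2, gave 0 genes called in limma, Ptgds included (−5.30, adjusted p 0.126), and Des at +0.079.

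Turned signs were as follows. Array medians set to 0 gave Cald1 −0.0048, Synm −0.011, Csrp1 −0.0045 and Dstn −0.016. The mean of a gene's probe sets gave Synm −0.072, Synpo2 −0.15, Ldb3 −0.00019 and Rock1 +0.14, and the most variable probe set Synm −0.16, Synpo2 −0.48 and Rock1 +0.98. Array weights gave Cald1 −0.0044, Synm −0.060, Pdlim3 −0.067, Csrp1 −0.025 and Dstn −0.0073. The adipocyte covariate gave Synm −0.11, Ldb3 −0.0067, Pdlim3 −0.0038, Csrp1 −0.073, Dstn −0.0056 and Pcp4 −0.31, the skeletal muscle covariate Synm −0.0027 and the cardiomyocyte covariate Pcp4 −0.00030. With 1 array left out, Synm ran from −0.062 to +0.12, Pdlim3 from −0.039 to +0.10, Cnn1 from −0.018 to +0.064, Cald1 from −0.015 to +0.042, Csrp1 from −0.075 to +0.086, Dstn from −0.026 to +0.020, Pcp4 from −0.064 to +0.43, Rock1 from −0.062 to +0.0033 and Des from −0.24 to +0.079.

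The following were chosen after seeing the data. A sympathetic neuron covariate left 7 genes called and gave Dstn −0.0068. Without wild type replicate 3 and knockout replicate 3, 1 gene was called, with Cnn1 −0.016, Cald1 −0.016, Synm −0.0083, Pdlim3 −0.012, Csrp1 −0.074, Dstn −0.026 and Pcp4 −0.022. Without wild type replicate 3 and knockout replicate 1, 3 genes were called, with Cnn1 −0.038, Cald1 −0.015, Synm −0.021, Ldb3 −0.0037, Pdlim3 −0.0025, Csrp1 −0.12, Dstn −0.029 and Pcp4 −0.0017. In both, 0 contractile genes were called, and 23 and 22 were higher in the knockout.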
